A study of Yarrowia lipolytica CLIB122 with 6 samples.

Results

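The genes described here are the 107 of 6452 rows of the expression table whose NCBI gene number is 7000000 or more. They were chosen by that number and not by any expression value, although earlier results of these data were known at the time. Their numbers run from 7009333 to 7009651, whereas the other 6279 numbered genes lie between 2905722 and 2912999. The table also holds 66 transcripts without a gene number. The lowest number above the limit, 7009333, and the highest below it, 2912999, are both ordinary expressed genes. Gene 7009333 had 323, 341 and 386 FPKM in the A24 libraries and 192, 191 and 179 FPKM in the C24 libraries. Gene 2912999 had 280, 286 and 294 FPKM in A24 and 338, 340 and 344 FPKM in C24.

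RNA-Seq was performed on 6 libraries of the oleaginous yeast Yarrowia lipolytica, 3 labelled A24 and 3 labelled C24, from cells collected at 24 h in the initial logarithmic phase. The study compared YlΔA1-FAR with WT-FAR, and the labels name only the letters, so A24 was read as the disruptant and C24 as its control. Both strains descend from one laboratory strain of mating type MATA with ura3, leu2 and lys8 mutations and a tagged PEX17 (PEX17-HA). Both also carry FAR, a bacterial fatty acyl-CoA reductase gene, which the TEFin promoter drives from the IntF site, with LEU2 as marker. In YlΔA1-FAR the A1 gene, YALI0_A00913g, was disrupted beforehand with CRISPR/Cas9 by a short deletion, and its level, which would check the labels, was not analysed here, since no table used pairs that tag with a gene number. The cultivations sampled at 24 h are described as biological replicates and the libraries as parallel samples, without tying each library to a culture, and how many clones stand behind each strain is not given in the sources used here. The p-values measure the spread between these libraries.

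A gene number is given when a gene record is made, so later numbers usually go to genes added to an annotation after its first release. First annotations of yeast genomes tend to miss short reading frames and genes whose coding sequence is split by introns, which are more common in Y. lipolytica than in baker's yeast. Expression was given as FPKM, the number of fragments scaled to transcript length and to the mapped fragments of the library. Because FPKM divides by length, 1 fragment is worth more FPKM in a short transcript than in a long one.

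The members could be placed on the genome only in part. The RefSeq table of assembly ASM176148v1, from another strain, CLIB89 (W29), listed 81 of the 107 members (75.7%) and 5992 of the 6279 genes with lower numbers (95.4%). It gives locus tags, chromosomes and gene types but no products, so no function is given for any member. The 81 members lay on every chromosome, with 6 on A, 13 on B, 9 on C, 11 on D, 22 on E and 20 on F. Chromosomes E and F held 27.2% and 24.7% of them, against 22.7% and 20.9% of the genes with lower numbers. In order of gene number, all 80 neighbouring pairs of these members were also in order of locus tag, from chromosome A to F, whereas 4760 of the 5991 pairs (79.5%) were so among the lower numbers.

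The listed members were short. Their median span in the table, introns included, was 526 bp, with a range of 147 to 2073 bp, against 1300 bp for genes with lower numbers. Spans under 600 bp were found for 49 members (60.5%) and for 10.9% of the genes with lower numbers. The span of a protein-coding gene is a multiple of 3 where it holds nothing but a reading frame. With pseudogenes included, the span was not a multiple of 3 in 33 listed members (40.7%), against 10.6% of the listed genes with lower numbers. Those 33 had a median span of 622 bp and a median level of 157 FPKM, and the 48 others had 370 bp and 90.2 FPKM. The table classed 4 members (4.94%) as pseudogenes, against 0.25% of the genes with lower numbers. The span of 1 member, 7009397 (YALI1_B06735g), overlapped another gene of the table, so its reads may be shared. The differences between members and other genes in this and the following paragraphs are descriptions, and no test was run on them.

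The members were expressed at all levels. Their median level over the 6 libraries was 70.3 FPKM, against 42.3 FPKM for the genes with lower numbers, with quartiles of 15.6 and 256 FPKM. A mean of 1000 FPKM or more was reached by 10 members (9.35%) and by 4.32% of the genes with lower numbers. At the other end, 15 members (14.0%) and 13.5% of the others had a mean under 5 FPKM. The members make up 1.66% of the rows and held 3.00%, 3.15% and 3.37% of the summed FPKM in A24 replicates 1, 2 and 3, and 3.06%, 3.13% and 3.16% in C24. The share was thus 3.17% ± 0.186 in A24 and 3.12% ± 0.0513 in C24 (SD, n = 3 each), and the strains overlapped. The 5 most abundant members made up 47.4% of the members' sum and the 10 most abundant made up 67.0%.

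The level depended on whether the member was found in the RefSeq table. The 81 listed members had a median of 133 FPKM and the 26 unlisted members had 21.8 FPKM. Of the unlisted members, 11 had a mean under 5 FPKM, against 4 of the listed ones. Among the genes with lower numbers the same split gave 44.5 FPKM for the 5992 listed genes and 4.58 FPKM for the 287 unlisted ones.

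**Figure D1:**
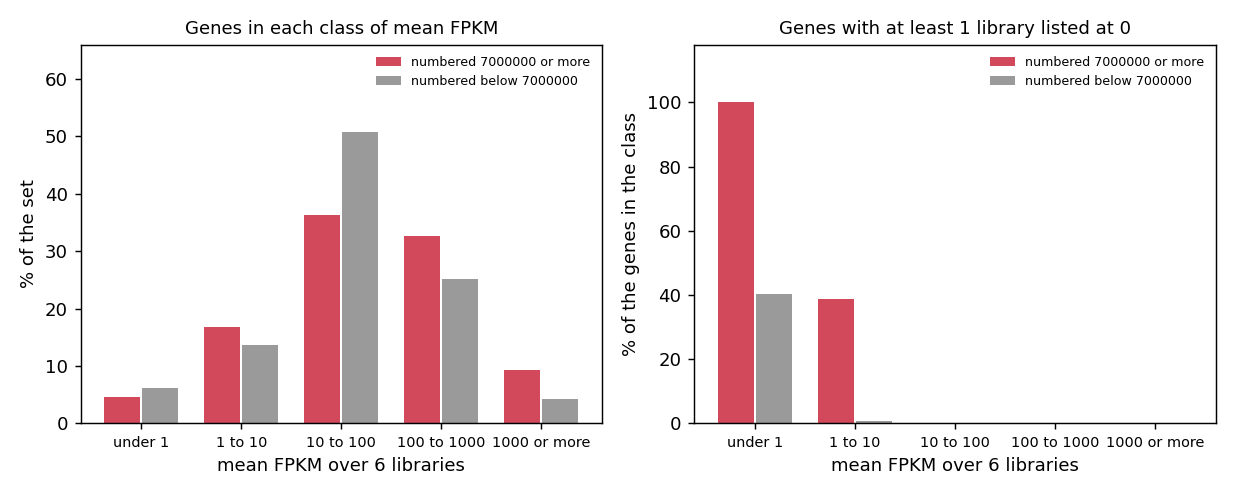
The left plot gives the percentage of each set in 5 classes of mean FPKM, and the right plot the percentage of the genes in each class with at least 1 library listed at 0. Members (red) take a larger share of the classes above 100 FPKM than genes with lower numbers (grey), and in the class of 1 to 10 FPKM 38.9% of members but 0.82% of the others had a value listed at 0.

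Of the 10 most abundant members, 5 had an adjusted p under 0.05 in the main fit and 1 of these, 7009588, was past both thresholds. Among the 4 with the highest levels, 3 overlapped between the strains. Gene 7009585 (YALI1_E35963g) was the 22nd most abundant row of the table, with 4714, 4543 and 5103 FPKM in A24 and 4400, 4659 and 5088 FPKM in C24. Gene 7009567 (YALI1_E27279g) had 3721, 3942 and 4397 FPKM in A24 and 3866, 4250 and 4134 FPKM in C24. Gene 7009579 (YALI1_E33336g), with a span of 261 bp, had 3713, 3532 and 3859 FPKM in A24 and 3619, 3443 and 3777 FPKM in C24. In these 3 genes the strains overlapped, and the log2 fold changes of 0.02, -0.02 and 0.03 missed the threshold (limma, adjusted p = 0.773, 0.752 and 0.561). The sign of each turned under other scalings of the libraries.

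Of the 7 other members above 1000 FPKM, 7009588 is described with the members past both thresholds. Gene 7009497 (YALI1_D09712g), the third most abundant member, had 3657, 4132 and 4692 FPKM in A24 and 3059, 3158 and 3292 FPKM in C24, a log2 fold change of 0.39 ± 0.08 (SE; limma, adjusted p = 0.00246). Gene 7009597 (YALI1_E41367g) had 2736, 2635 and 3115 FPKM in A24 and 2218, 2235 and 2234 FPKM in C24, a log2 fold change of 0.34 (limma, adjusted p = 0.00091). In both genes every A24 library was above every C24 library, by less than a doubling. Gene 7009603 (YALI1_F03215g) had 1503, 1608 and 1829 FPKM in A24 and 1415, 1372 and 1463 FPKM in C24, a log2 fold change of 0.21 (limma, adjusted p = 0.0194). In the main fit gene 7009589 (YALI1_E38131g) was the only one of the 10 to be lower in A24 with an adjusted p under 0.05. It had 1347, 1431 and 1453 FPKM against 1693, 1755 and 1751 FPKM in C24, a log2 fold change of -0.30 (limma, adjusted p = 0.000219). Gene 7009394 (YALI1_B03797g) had 2064, 1946 and 2242 FPKM in A24 and 2023, 1850 and 1886 FPKM in C24. Gene 7009423 (YALI1_B28025g) had 1361, 1505 and 1592 FPKM in A24 and 1573, 1627 and 1696 FPKM in C24. The strains overlapped in both, and the log2 fold changes of 0.12 and -0.14 missed the threshold (limma, adjusted p = 0.104 and 0.0657). Such small changes depended on scaling. With equal FPKM totals 7009423 reached an adjusted p of 0.00526 and 7009603 rose to 0.0503, and with median-of-ratios scaling 7009394 reached 0.0101 (limma).

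To ask which members changed with the A1 disruption, A24 and C24 were set against each other with limma on log2(FPKM + 0.1). All 6052 transcripts whose mean reached 1 FPKM were tested, 102 of them members. A gene was called when its log2 fold change was beyond 1 with an adjusted p below 0.05. By this rule 7 members were higher and 1 was lower in A24, or 7.84% of the members tested against 6.56% of all transcripts. Over all transcripts tested, 3.85% were called higher and 2.71% lower, so the 6.86% and 0.98% of the members rest on few genes on either side of the background. At the shares found for lower numbers in the same classes of mean FPKM, 4.09 higher and 3.12 lower members would have been called. With every library scaled to the same FPKM total, 6 members were higher and 3 were lower. Over all transcripts that scaling moved the counts the same way, from 233 higher and 164 lower to 205 and 193. By the adjusted p-value alone, 54 members (52.9%) were called, 29 higher and 25 lower. The background was 67.2% of all transcripts, 26.8% higher and 40.4% lower, and the members' shares were 28.4% and 24.5%. For a single gene, the smallest two-sided p-value of an exact permutation test with 3 libraries per strain is 0.10. The smaller limma p-values rest on the limma model, which assumes normal errors and shares spread between genes.

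**Figure D2:**
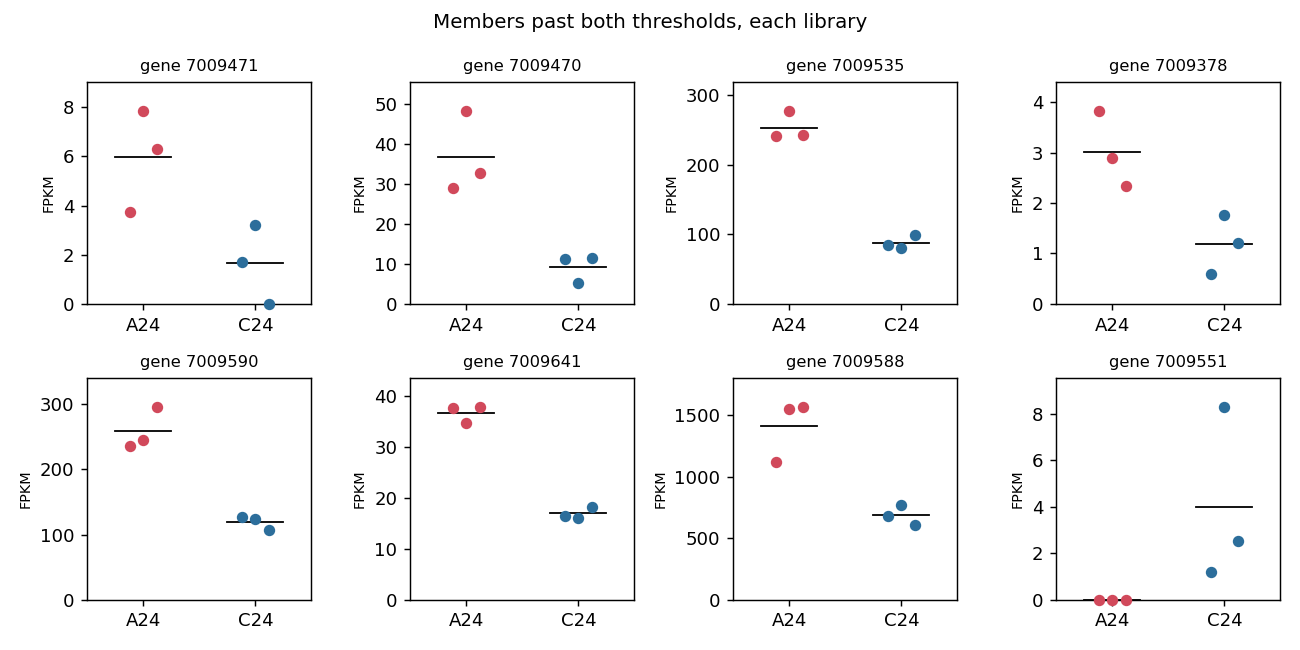
FPKM of the 8 members past both thresholds in each library, with A24 in red, C24 in blue and the mean of the 3 libraries as a line; each plot has its own axis from 0. Strains do not overlap in any of the 8, and gene 7009551 is at 0 in all A24 libraries.

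Among the 7 higher members, 4 were called under all 15 other settings that tested them. Gene 7009535 (YALI1_E02959g, chromosome E) had 241, 277 and 242 FPKM in A24 and 84.6, 80.9 and 98.9 FPKM in C24. Its lowest A24 value was more than 2 times its highest C24 value, and the log2 fold change was 1.52 ± 0.08 (SE; limma, adjusted p = 5.77e-07). Gene 7009590 (YALI1_E38178g, chromosome E) had 235, 245 and 296 FPKM in A24 and 126, 123 and 108 FPKM in C24. Its mean was 2.17 times as high in A24, a log2 fold change of 1.12 ± 0.09 (SE; limma, adjusted p = 7.61e-06). Gene 7009641 (YALI1_F33603g, chromosome F) had 37.6, 34.7 and 37.9 FPKM in A24 and 16.5, 16.1 and 18.3 FPKM in C24, and its libraries lay close together within each strain. Its log2 fold change was 1.11 ± 0.07 (SE; limma, adjusted p = 1.25e-06). Gene 7009470, not listed in the RefSeq table, had 29.1, 48.2 and 32.8 FPKM in A24 and 11.4, 5.33 and 11.4 FPKM in C24. Its values varied more within the strains than those of the other 3, with a log2 fold change of 2.01 ± 0.29 (SE; limma, adjusted p = 0.000256).

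The other 3 higher members stood closer to a limit. Gene 7009588, not listed in the RefSeq table, was the most abundant of the 8, with 1120, 1551 and 1568 FPKM in A24 and 681, 771 and 607 FPKM in C24. Its log2 fold change of 1.03 ± 0.13 (SE; limma, adjusted p = 0.000117) fell under 1 in 5 of the 15 other settings, where it was 0.95 at the least. They were equal FPKM totals, quantile normalization and the fits without A24 replicate 2, A24 replicate 3 or C24 replicate 3. Gene 7009378 (YALI1_A15507g, chromosome A, span 255 bp) had 3.82, 2.90 and 2.33 FPKM in A24 and 0.60, 1.77 and 1.20 FPKM in C24. Its log2 fold change of 1.36 ± 0.35 (SE; limma, adjusted p = 0.00714) was not past the limit with a pseudocount of 1 or without C24 replicate 1, and was 0.89 at the least. Gene 7009471, not listed in the RefSeq table, had 3.75, 7.84 and 6.29 FPKM in A24 and 1.71, 3.23 and 0 FPKM in C24. Its log2 fold change was 2.78 ± 1.08 (SE), and only the adjusted p limit was passed by a narrow margin (limma, adjusted p = 0.045). It was past both limits in 8 of the 14 other settings that tested it, with log2 fold changes from 1.24 to 3.90. The call was lost without any one of the A24 libraries, without the filter on low values, with a pseudocount of 0.01 and with eBayes without a trend.

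The single lower member was gene 7009551 (YALI1_E15606g, chromosome E). It was listed at 0 in every A24 library and at 1.20, 8.28 and 2.53 FPKM in C24 replicates 1, 2 and 3 (limma, adjusted p = 0.000119). Without C24 replicate 2 its mean fell under 1 FPKM and it was not tested, so no lower member was called. Of the members with a mean of at least 5 FPKM, a limit chosen after seeing the data, 5 were higher past both thresholds and none was lower. Among all transcripts the 10 FPKM filter of the other settings left 172 higher and 54 lower of 5159 tested, and among the members 5 and 0. The classes of 10 to 100, 100 to 1000 and 1000 FPKM or more hold 39, 35 and 10 members. Of the genes with lower numbers there, 1.07%, 0.949% and 0.738% were called lower, so the absence of a lower member says little. The calls of 7009378, 7009471 and 7009551 rest on low values, and the steps of 7009471 and 7009551 are given next.

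Low values could be read as steps. In 19 rows of the table with at least 1 library listed at 0, at least 3 values above 0, none of these below 0.5 FPKM and the largest at most 8 times the smallest, 85.3% of the 75 values above 0 lay within 0.1 of a whole multiple of 1 step per gene. The step of each gene and the worth of a step in each library were fitted to these same values. The fit sought whole multiples, so a high share was partly built in and is no evidence for steps. What share would arise without steps was not tested. The fitted worth of a step differed between libraries, being 1.15 in A24 replicate 1 and 1.00 to 1.08 in the others relative to A24 replicate 2. If a step is 1 fragment, which is the smallest reading these values allow, gene 7009551 had 0, 0 and 0 fragments in A24 and 1, 7 and 2 in C24. Gene 7009471 had 2, 5 and 4 fragments in A24 and 1, 2 and 0 in C24. One step was worth 1.15 FPKM for the first and 1.57 FPKM for the second in A24 replicate 2.

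Further members under 5 FPKM with such steps are given here under the same assumption, and they were chosen for mention after their values were seen. Gene 7009464 had 0, 4.49 and 4.51 FPKM in A24 and 3.27, 1.54 and 3.27 FPKM in C24, which reads as 0, 3 and 3 against 2, 1 and 2 fragments. Gene 7009478 (YALI1_C31363g, a pseudogene of 162 bp) had 0, 4.92 and 0 FPKM in A24 and 3.60, 1.69 and 7.21 FPKM in C24, or 0, 3 and 0 against 2, 1 and 4 fragments. For 7009336 the values were 3.57, 3.00 and 1.50 FPKM against 0, 1.54 and 1.63 FPKM, or 2, 2 and 1 against 0, 1 and 1 fragments. The strains overlapped in 7009464 and 7009478, and in 7009336 by 1 library. None of the 3 was past both thresholds (limma, adjusted p = 0.481 for 7009464, 0.0533 for 7009478 and 0.0936 for 7009336). Not all low members read so cleanly. The best step left a value 0.41 of a step from a whole number in 7009527, 0.38 in 7009393 and 0.2 in the called gene 7009378, so no fragment numbers are given for them.

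Values of 0 were frequent among the members at levels where other genes had almost none. No member was listed at 0 in all 6 libraries, against 22 of the genes with lower numbers (0.35%). At least 1 value of 0 was listed for 12 members (11.2%), against 2.60% of the others, and 10 of the 12 were not in the RefSeq table. All 12 had a mean under 5 FPKM. Of the 18 members with a mean of 1 to 10 FPKM, 7 had a 0 (38.9%), against 7 of 854 genes with lower numbers (0.82%). With the shares of the lower numbers in the same classes, 2.17 members with a 0 would have been found. Of the 35 values listed at 0, 21 were in A24 and 14 in C24, with 10 in A24 replicate 1, 5 in A24 replicate 2, 6 in A24 replicate 3 and 3, 4 and 7 in C24. In the rows with both a 0 and a value above 0, the smallest value above 0 had a median of 1.52 FPKM in the 12 members and 0.22 FPKM in 141 genes with lower numbers. It was at least 1 FPKM in 9 of the 12 members and in 4.26% of the others.

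The libraries of a strain also lay further apart in the members than in other genes of the same level. The pooled SD of log2(FPKM + 0.1) within a strain had a median of 0.14 in the members and 0.07 in the genes with lower numbers. In the class of 10 to 100 FPKM the medians were 0.14 and 0.07, in the class of 100 to 1000 FPKM 0.11 and 0.05, and at 1000 FPKM or more 0.093 and 0.055. Strains did not overlap in 49 of the 102 members tested (48.0%), against a background of 71.3%, and 73.7 members would be without overlap at the shares of the lower numbers in the same classes. The absolute log2 fold changes were no smaller, with a median of 0.30 in the members and 0.27 over all transcripts tested. A short span went with a wider spread among genes with lower numbers too. In the class of 100 to 1000 FPKM their median SD was 0.09 for spans under 600 bp and 0.05 for longer ones, whereas it was 0.12 and 0.10 in the listed members. The part of transcript length in these differences was not tested, because the lengths used for the FPKM values are not given in the sources used here.

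**Figure D3:**
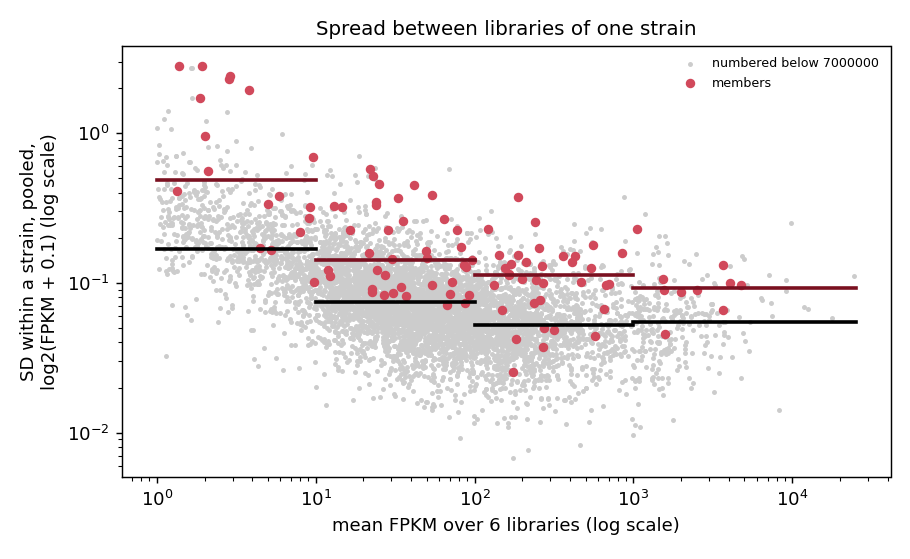
Pooled SD of log2(FPKM + 0.1) within a strain against mean FPKM, both axes on a log scale, for the members (red) and the genes with lower numbers (grey) with a mean of at least 1 FPKM; lines give the median in 4 classes of level, dark red for members and black for the others. In the class of 10 to 100 FPKM the medians are 0.14 and 0.07.

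Part of this spread had a direction. A24 replicate 1 was the lowest of the 3 A24 libraries in 59 of the 102 members (57.8%), against 22.6% of the genes with lower numbers, and A24 replicate 3 was the highest in 69 members (67.6%), against 38.5%. The median log2 ratio of A24 replicate 3 over replicate 1 was 0.22 in the members and -0.01 in the others. It was 0.23, 0.22, 0.21 and 0.17 in members with spans under 300 bp, of 300 to 600 bp, of 600 to 1200 bp and of 1200 bp or more. In the genes with lower numbers it fell with span, from 0.26 under 300 bp to 0.083, 0.009 and -0.035 in the longer classes. In members of 600 bp or more the ratio thus lay nearer to that of the shortest other genes than to that of other genes of their own span. The ratio was 0.16 in members whose span is a multiple of 3, 0.235 in those whose span is not, and 0.26 in the unlisted members. Between C24 replicates 3 and 1 the median log2 ratio was 0.05 in the members and 0.01 in the others.

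**Figure D4:**
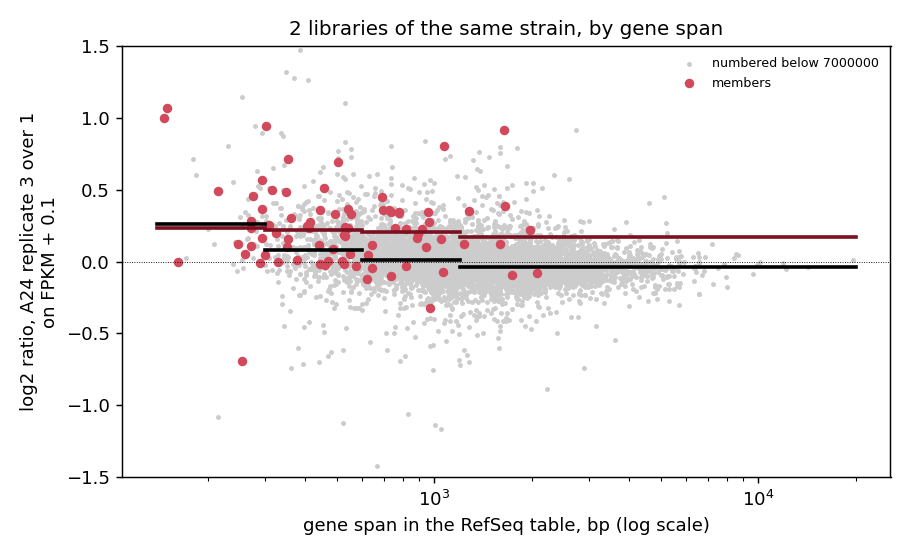
Log2 ratio of A24 replicate 3 over A24 replicate 1 against the gene span in bp on a log scale, for the 81 listed members (red) and genes with lower numbers (grey, 8 of them outside the axis); lines give medians in 4 classes of span, dark red for members and black for the others. The members' medians stay between 0.17 and 0.23 at all spans, and the others fall from 0.26 to -0.035.

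Over all members tested, the strains differed little on balance. The median log2 fold change was -0.02, with 49 members above 0 and 53 below, with quartiles of -0.24 and 0.37. Over all transcripts tested the median was -0.09, with quartiles of -0.31 and 0.19. With median-of-ratios scaling the members' median was 0.06 and that over all transcripts was -0.006, so both rose. The members' median was 0.03 without A24 replicate 1 and -0.08 without A24 replicate 3, the libraries that differed most in these genes. By class of level the members' medians were 0.02 at 1 to 10 FPKM, 0.03 at 10 to 100, -0.09 at 100 to 1000 and 0.08 at 1000 FPKM or more. The genes with lower numbers had -0.147, -0.096, -0.095 and 0.076 in the same classes. In the 15 members with spans under 300 bp the median was 0.34, against -0.05 in 36 genes with lower numbers, and in the 8 members of 1200 bp or more it was -0.30, against -0.12. Level was not matched in these span classes. Under 300 bp the median level was 315 FPKM in the members and 53.0 FPKM in the genes with lower numbers, untested ones included.

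**Figure D5:**
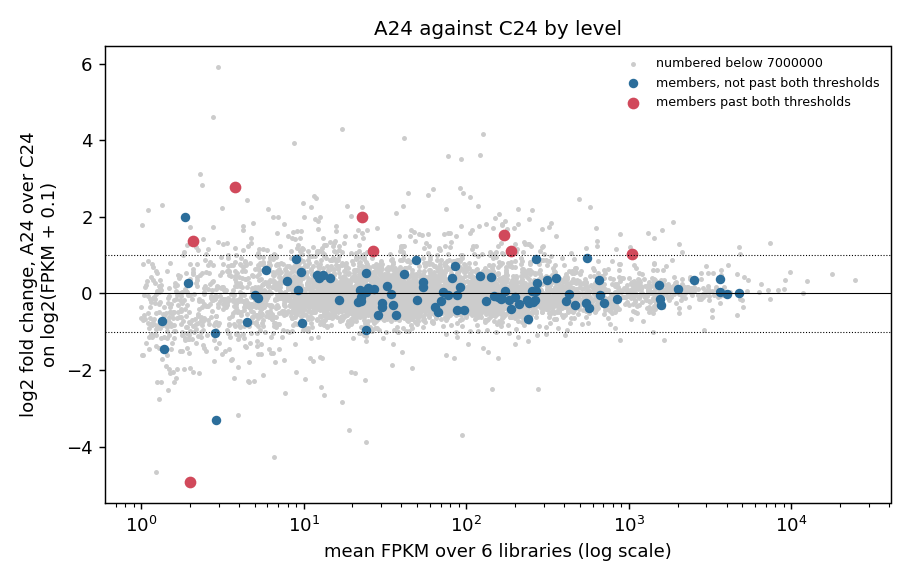
Log2 fold change of A24 over C24 on the log2(FPKM + 0.1) scale against mean FPKM on a log scale, for genes with lower numbers (grey), members not past both thresholds (blue) and the 8 members past them (red); dotted lines mark 1 and -1. Of the 8 red points 7 lie above 1 and 1, gene 7009551, lies below -1; blue points beyond the dotted lines missed the adjusted p threshold.

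Below the fold change limit, the largest differences among members with a mean of at least 100 FPKM and an adjusted p under 0.05 were both increases. Gene 7009541 (YALI1_E09817g, chromosome E, span 276 bp) had 619, 717 and 849 FPKM in A24 and 376, 407 and 351 FPKM in C24. Its log2 fold change was 0.94 ± 0.10 (SE; limma, adjusted p = 5.05e-05), and it passed the limit of 1 with median-of-ratios scaling and without A24 replicate 1. Gene 7009333 (YALI1_A01864g, chromosome A, span 309 bp), whose values open this account, had a log2 fold change of 0.90 ± 0.06 (SE; limma, adjusted p = 3.24e-06). Every A24 library was above every C24 library in both genes.

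The 5 called members with a place in the RefSeq table were set beside the nearest genes on either side that the expression table holds. None of these 10 neighbours was past both thresholds, which with a background of 6.56% says little, and 4 of them had a log2 fold change of the same sign as the member. Beside 7009535 (YALI1_E02959g) the neighbours YALI1_E02948g and YALI1_E02966g had log2 fold changes of 0.13 and 0.63 (limma, adjusted p = 0.0747 and 1.47e-05). Both neighbours of 7009590 (YALI1_E38178g) were lower in A24, YALI1_E38164g by a log2 fold change of -0.76 and YALI1_E38208g by -0.54 (limma, adjusted p = 0.00757 and 0.000228). Both neighbours of 7009641 (YALI1_F33603g) were lower as well, YALI1_F33594g by -0.53 and YALI1_F33618g by -0.59 (limma, adjusted p = 5.34e-06 and 1.02e-05). Of all transcripts tested, 40.4% were lower and 26.8% higher by the adjusted p-value alone, so these directions say little.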

How the data were processed

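The authors removed ribosomal RNA with RNase H, primed cDNA randomly and filtered the BGISEQ-500 reads with SOAPnuke. The deposited table gives FPKM from RSEM per gene and library, with no counts. The submitters' processing notes name HISAT2 2.0.4, Bowtie2 2.2.5, RSEM 1.2.12 and DESeq2 1.4.5 without a role. Genome build and annotation are not given in the sources used here. Total fragments per library are unknown. Low values gave only a fitted relative depth, under the assumption that a step is 1 fragment. The FPKM of A24 and C24 (n = 3 each) were compared as log2(FPKM + 0.1) in limma 3.58.1 with a trend and Benjamini-Hochberg adjustment over the 6052 transcripts whose mean reached 1 FPKM. Fold changes are on that scale, which tends to shrink the change of low genes without a 0. For genes with a value listed at 0 they depend on the added amount and can differ from the ratio of the means. Gene 7009471 was at 2.78 with 0.1 added, 3.90 with 0.01 and 1.58 with 1. Gene 7009464 was at -1.05, although its mean was 3.00 FPKM in A24 and 2.69 FPKM in C24. The fit and the search for steps in low values were tested on simulated data, where the relative worth of a step came out slightly low. Members and lists were chosen with earlier results of these data known. Genes were named if past both thresholds, among the 10 most abundant members, at 0 in all of one strain and above 0 in all of the other, among the 5 largest changes with an adjusted p under 0.05 and a mean of at least 100 FPKM, or at the edge of the number block. Alternatives were other pseudocounts, filters, scalings, a replicate block, eBayes without a trend and leaving out each library. NOISeq, used in the study, was not run.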

Additional observations from a re-analysis of the deposited data

How the results depend on the processing

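The 7 higher and 1 lower members became 29 and 25 by the adjusted p-value alone. Across the other settings the higher count was 5 to 8, and 5 to 9 when a library was left out. The lower count was 3 with equal FPKM totals, 2 with a pseudocount of 0.01, 0 with a mean of at least 10 FPKM or, chosen after seeing the data, of at least 5 FPKM, and 0 to 2 when a library was left out. The counts over all transcripts moved too, from 233 higher and 164 lower. They were 205 and 193 with equal FPKM totals, 234 and 171 with a pseudocount of 0.01, and 269 and 134 with median-of-ratios scaling. With a mean of at least 10 FPKM they were 172 and 54. The members' median log2 fold change of -0.02 was 0.06 with median-of-ratios scaling and -0.083 to 0.032 when a library was left out. Over all transcripts the median went from -0.088 to -0.006 with median-of-ratios scaling. The median level was 68.8 to 71.8 FPKM when a library was left out. Of 296 values of 20 named genes under the alternatives, 272 kept their direction and their call by both thresholds. Among these 272 the adjusted p alone could still cross 0.05. With quantile normalization it went from 0.0194 to 0.0654 in gene 7009603 and from 0.0657 to 0.00277 in gene 7009423 (limma). The sign changed in 9 of the 296 values, all in abundant genes with log2 fold changes near 0. Gene 7009585 was at -0.047 with equal FPKM totals, -0.152 with quantile normalization (limma, adjusted p = 0.0149), -0.025 without A24 replicate 3 and -0.026 without C24 replicate 1, with 0.079 as its highest value when a library was left out. Gene 7009567 was at 0.058 with median-of-ratios scaling, 0.029 without A24 replicate 1 and 0.005 without C24 replicate 2, with -0.091 as its lowest value when a library was left out, and it was at -0.162 with quantile normalization (limma, adjusted p = 0.017). Gene 7009579 was at -0.034 with equal FPKM totals and -0.043 with quantile normalization. The cause was not tested. Libraries with the same replicate number did not deviate together (correlations of -0.02, 0.04 and 0.08), and with a replicate block 7 members were higher and 1 was lower. The table holds no counts, so the fragments behind the low values, and the precision of calls there, are not known.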
